A study of Homo sapiens with 2 samples.

Results

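The HIST genes are the histone genes of the 4 clusters named HIST1 to HIST4, and they were followed on 2 whole-genome arrays of the retinoblastoma cell line Y79. Members were all non-control oligonucleotides (probes) whose gene name in the array files begins with HIST1H, HIST2H, HIST3H or HIST4H. This gave 83 of 40976 probes, which stand for 65 of 30967 gene names. By class they were 6 probes for the linker histone H1, 22 for H2A, 23 for H2B, 17 for H3 and 15 for H4. By cluster they were 64 probes of HIST1, on chromosome 6, 13 of HIST2 and 4 of HIST3, both on chromosome 1, and 2 of HIST4, on chromosome 12.

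One array was hybridized with RNA of siRNA-untreated Y79 cells and the other with RNA of Y79 cells that had received Ep-CAM siRNA. According to the methods, the siRNA was given at 200 nM, cells were taken after 48 h, and both cultures had earlier been exposed to 5 µM azacytidine (AZC), a DNA demethylating drug, which the sample labels do not state. Y79 is an established line from a human retinoblastoma and grows in suspension. The comparison asks which transcripts differ once Ep-CAM, an epithelial adhesion and signaling protein, is targeted. Neither array came from cells given a scrambled control siRNA. Effects of targeting Ep-CAM and of siRNA transfection as such therefore cannot be told apart.

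There was 1 array per condition, so every ratio compares these 2 arrays, without a test or a p-value. A spread was measurable for repeated spots alone. Among 170 probes printed repeatedly, with at least 8 measured spots each, the log2 ratio of the spots of 1 probe had a median SD of 0.139. All 83 HIST probes were printed once. The log2 ratio is that of siRNA-treated over untreated signal, each array scaled to its median.

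Histones are the proteins around which DNA is wound. Pairs of H2A, H2B, H3 and H4 form the nucleosome core, and H1 binds the DNA between cores. Most genes of the HIST clusters are replication-dependent: they have no introns, are transcribed mainly in S phase, and their mRNAs end in a conserved stem-loop in place of a poly(A) tail. Some of them also give polyadenylated transcripts. The arrays were labeled by linear amplification with T7 RNA polymerase, a method that usually primes on poly(A). How much of each transcript was primed was not tested, so a HIST signal is here the signal of the labeled RNA and not a count of all histone mRNA.

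The probes have 60 bases, and histone genes of a class are close copies of each other. The sequences that follow are those on which the ratios turn. They are printed as the array files give them, 5′ to 3′, with hg17 coordinates of the array design and the strand of the probe. All lie in a stretch whose reading frame, without a stop codon, was shared over at least 5 amino acids with probes of at least 2 other genes of the class, and are therefore taken as coding. Capitals mark bases that differ from the other probe of the pair at the best alignment, or that lie outside it.

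The HIST1H2BE and HIST1H2BF probes, at chr6:26292319-26292378 (+) and chr6:26308082-26308141 (+), were the most alike of all pairs from different genes and shared 56 bases, so either transcript can bind both. Their log2 ratios were -0.36 and -0.43.
HIST1H2BE: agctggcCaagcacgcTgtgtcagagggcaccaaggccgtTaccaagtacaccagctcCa
HIST1H2BF: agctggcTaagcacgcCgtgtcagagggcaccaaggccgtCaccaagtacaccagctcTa

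The HIST1H2BN and HIST2H2BE probes, at chr6:27914524-27914583 (+) and chr1:146671103-146671162 (-), shared 54 bases when shifted by 4 bases. They lie on different chromosomes, and their log2 ratios were -0.31 and -1.13.
HIST1H2BN: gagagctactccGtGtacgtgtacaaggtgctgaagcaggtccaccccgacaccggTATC
HIST2H2BE: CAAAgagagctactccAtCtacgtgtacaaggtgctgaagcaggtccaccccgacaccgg

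The 2 HIST1H3B probes, at chr6:26139888-26139947 (-) and chr6:26139901-26139960 (-), read the same gene 13 bases apart. The capitals are the bases that only 1 of them covers. The log2 ratio was -1.07 at the first and -0.06 at the second.
HIST1H3B, first probe: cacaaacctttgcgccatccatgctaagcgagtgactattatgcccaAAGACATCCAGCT
HIST1H3B, second probe: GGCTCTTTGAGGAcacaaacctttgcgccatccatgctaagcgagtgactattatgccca

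HIST1H2BB, at chr6:26151485-26151544 (-), and HIST1H3I, at chr6:27947836-27947895 (-), had the lowest ratios. HIST1H2BB is capitalized against the HIST1H2BF probe above, and HIST1H3I against HIST1H3H at chr6:27886003-27886062 (+).
HIST1H2BB: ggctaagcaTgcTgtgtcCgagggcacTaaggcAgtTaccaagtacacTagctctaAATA
HIST1H3I: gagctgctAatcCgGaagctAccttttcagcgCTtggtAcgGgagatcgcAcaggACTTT
HIST1H3H: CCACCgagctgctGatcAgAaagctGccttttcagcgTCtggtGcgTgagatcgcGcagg

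The H4 probes HIST1H4H, at chr6:26393476-26393535 (-), and HIST1H4F, at chr6:26348797-26348856 (+), stand for 4 H4 probes that overlap in the same stretch of the protein. The other two were HIST1H4I and HIST2H4A. Each of the 4 shared up to 45 bases with another of them.
HIST1H4H: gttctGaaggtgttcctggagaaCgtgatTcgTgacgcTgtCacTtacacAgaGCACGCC
HIST1H4F: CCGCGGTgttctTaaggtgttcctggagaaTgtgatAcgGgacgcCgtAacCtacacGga

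Most HIST probes gave signal. On both arrays 74 of 83 (89.2%, 95% Wilson interval 80.7% to 94.2%, counting probes only) were well above background, against 66.0% (65.5% to 66.5%) of all probes. None was above background on 1 array alone. The 9 probes not well above background on either array were those of HIST1H1A, HIST1H1B and HIST1H1T, the only probe of HIST1H2BA and of HIST1H4G, and 1 probe each of HIST1H2AG, HIST1H2AK, HIST1H2BN and HIST2H2AC. All 17 H3 probes were above background, and 3 of 6 H1 probes.

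Several HIST probes were at the ceiling of the scanner. Of the 73 saturated spots on the untreated array 8 were HIST spots, and of the 53 on the siRNA-treated array 4 were. Probes of HIST1H2AG, HIST1H2AH, HIST1H2AK and HIST3H2A were saturated on both arrays and have no ratio. Probes of HIST1H2AB, HIST1H2AJ, HIST1H2AM and HIST3H3 were saturated on the untreated array only, so their ratios are bounds. This left 70 probes with a ratio or a bound, of which 66 were measured on both arrays.

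The median log2 ratio was -0.16 over the 66 measured HIST probes, against -0.03 over all measured probes. The distance depended on the processing, and the HIST median was -0.030 with normexp background correction and -0.044 with quantile normalization, where the median of all measured probes was -0.0049 and 0.0034. Below 0 were 44 of them (66.7%), where 55.2% of all measured probes were. A log2 ratio of -1 or less, the call used here for lower, was reached by 5 of 70 probes (7.14%), where 0.933% of all probes with a ratio or bound reached it. No HIST probe reached 1, the call for higher, where 1.28% of all probes did. The classes were not alike. The median was -0.45 for H2A (12 measured probes), -0.31 for H2B (21) and -0.32 for H3 (16), while it was -0.02 for H4 (14) and 0.00 for H1 (3). Over 13 alternative settings the median ran from -0.45 to -0.13 for H2A, from -0.31 to -0.019 for H2B and from -0.34 to -0.026 for H3, so those of H2B and H3 came close to 0 in some. The H4 median ran from -0.044 to 0.042 and that of H1 from -0.059 to 0.036.

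**Figure D1:**
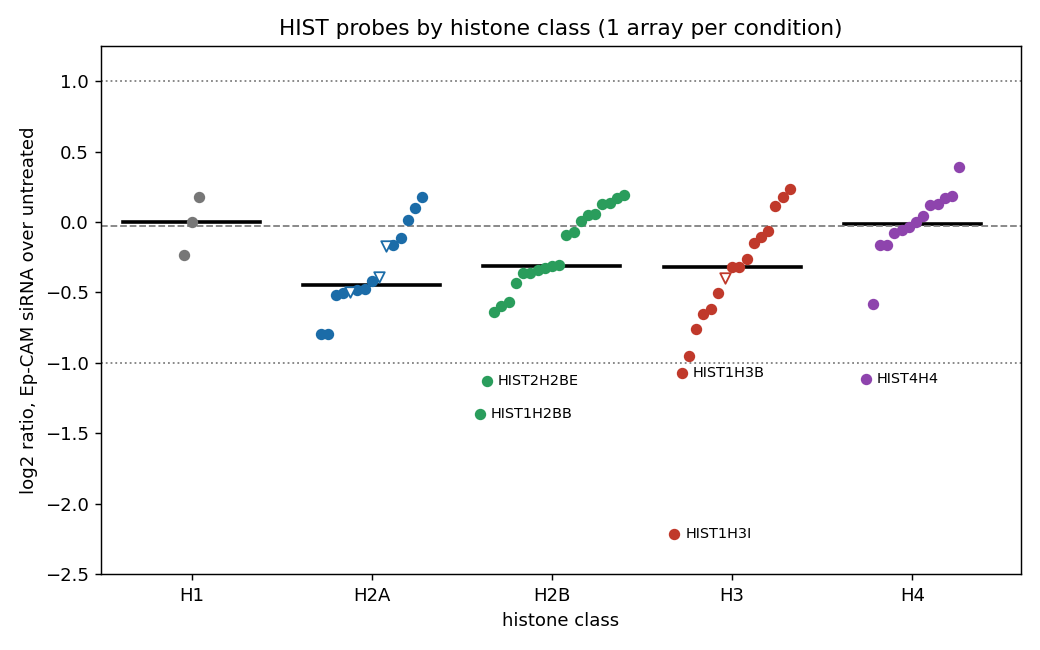
Log2 ratio of each HIST probe (vertical axis, Ep-CAM siRNA over untreated) by histone class (horizontal axis), ordered by value within a class. Filled points are measured probes, open triangles are bounds from saturated spots, black lines are the class medians over measured probes, the dashed line is the median of all measured probes (-0.03) and the dotted lines mark the calls at -1 and 1. The 5 named probes lie below -1, and the H2A, H2B and H3 medians lie below those of H1 and H4.

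The ratio moved with the signal over the whole array. Among the other measured probes, the median log2 ratio was -0.01 at a mean log2 level of 1 to 2 above the array median (5430 probes) and -0.33 at a level of 7 to 8 (237 probes). At a level of 7 or more lay 15 of the 66 measured HIST probes and 549 of all 26976 measured probes. At these levels 89.4% of all probes were below 0, with a median of -0.29. The median over the measured HIST probes was -0.07 once a curve of ratio on signal was subtracted. The medians of H2A, H2B and H3 were then -0.13, -0.06 and -0.16, and that of H4 0.04. That of H1, over its few measured probes, was -0.06, so H2B no longer lay below H1. The part of this trend in the HIST values was otherwise not tested.

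Among the bright probes, H4 stood apart from the other core histones. All 10 measured probes of H2A, H2B and H3 at a level of 7 or more were below 0, from -0.76 to -0.31. At this level 89.4% of all measured probes were below 0. Left out are 4 bright probes of these classes saturated on both arrays and 4 saturated on the untreated array only. The 5 H4 probes ran from -0.03 to 0.19, with 4 above 0. The highest of the 10 was lower than the lowest of the 5. This order held in the 9 settings that changed the values and kept all of these probes. In them the 10 had medians from -0.46 to -0.12 and the 5 from 0.10 to 0.46. Of the 10, 8 were below 0 under each normexp fit and 9 with quantile normalization. The level of 7 was chosen after the values were seen, so the settings, which keep the same probes, do not test the split. Just under it, HIST1H2BJ at a level of 6.975 kept the order (-0.34). The H3 probes of HIST1H3D at 6.75 (0.18) and HIST2H3A at 6.59 (0.11) did not, and lay above HIST1H4F (-0.03). The probes are not independent, since 4 of the 5 H4 probes share bases as shown above.

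**Figure D2:**
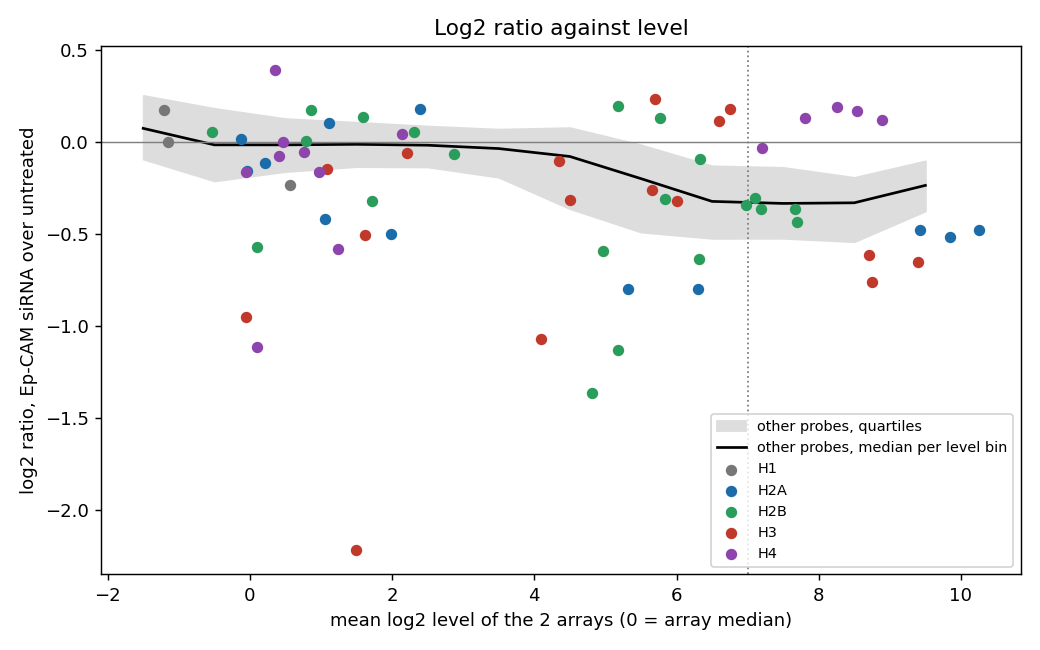
Log2 ratio (vertical axis, Ep-CAM siRNA over untreated) against the mean log2 level of the 2 arrays, where 0 is the array median (horizontal axis). Points are the 66 measured HIST probes by class, the black line is the median of the other probes in bins of 1 log2 unit, the grey band their quartiles, and the dotted line marks a level of 7. To the right of it the H4 points lie near or above 0, where the line of other probes is near -0.33, and the H2A, H2B and H3 points lie below 0.

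H2A is the core histone that binds H2B and has the most known variants. Its brightest measured probe, HIST1H2AD, had a processed signal (brightness after background subtraction, in arbitrary units) of 70080 without and 51460 with siRNA (log2 ratio -0.48). Values are given in this order from here on. This probe shared 53 bases with the HIST1H2AK probe, which was saturated on both arrays at 61960 and 67120. The lowest ratio was that of HIST1H2AE, with 2554 and 1506 (-0.80), and the highest that of HIST1H2AC, with 241 and 280 (0.18).

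Several H2A genes were read by more than 1 probe, and their probes differed. For HIST2H2AB a probe without a shared frame read 54000 and 38640 (-0.52), while a coding probe 32 bases further along read 59.1 and 55.9 (-0.11). For HIST2H2AC the coding probe read 39700 and 29200 (-0.48), and a probe 25 bases downstream was not well above background. The HIST2H2AA3 probes read 229 and 166 (-0.50) and 102 and 112 (0.10). HIST1H2AJ read 71810, saturated, and 52070 at its coding probe (a bound of -0.50) and read 5079 and 2996 (-0.80) at the other. HIST1H2AM likewise read 101100, saturated, and 79240 (a bound of -0.39) and 117 and 89.6 (-0.42). In both of these genes the 2 probes lay on the same side of 0.

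H2B pairs with H2A in the nucleosome. HIST1H2BB was the lowest H2B probe, with 2198 and 875 (-1.36, 2.57-fold lower after scaling), and it was -1 or less in 9 of 9 other settings. The HIST1H2BF probe, to which it is aligned above, read 11750 and 8922 (-0.43), and HIST1H2BE read 8081 and 6431 (-0.36). The other bright H2B probes, HIST1H2BL with 11200 and 8921 (-0.36) and HIST1H2BO with 7446 and 6173 (-0.31), lay in the same range. The distance between HIST1H2BB and the HIST1H2BF probe was many times the technical SD. That SD covers repeated spots of 1 probe and not the spread between different probes. Even probes of the same gene differed by a median of 0.60 (11 genes), so the distance is not shown to be one between the genes.

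HIST2H2BE was called at 1 of its 3 probes. The coding probe read 2610 and 1221 (-1.13, 2.19-fold lower), which was -1 or less in 5 of 9 other settings. A probe 966 bases downstream read 33.0 and 35.1 (0.05), and one 1616 bases downstream read 141 and 158 (0.14). HIST2H2BE is one of the genes known for a second, polyadenylated transcript with a long tail end. The HIST1H2BN probe that shares 54 bases with the called probe read 3121 and 2578 (-0.31).

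The rest of H2B was closer to 0. The highest ratio was that of HIST1H2BC, with 1647 and 1928 (0.19). HIST1H2BJ read 6912 and 5587 (-0.34) at its coding probe and 83.7 and 96.7 (0.17) at a probe 7030 bases downstream. HIST1H2BD read 2550 and 2859 (0.13) at its coding probe, and 179 and 146 (-0.32) at a probe on the opposite strand. HIST3H2BB, in the HIST3 cluster, read 4846 and 3192 (-0.64) on the gene's strand and 1883 and 1278 (-0.59) on the opposite strand. It was the only gene of 11 with more than 1 measured probe in which they differed by less than 0.279, which is 2 technical SDs.

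H3 carries the tail on which many activating and silencing marks are set. HIST1H3I had the lowest ratio of all HIST probes, with 295 and 65.1 (-2.22, 4.64-fold lower). Its spot lies in row 532, the last row of the array, in the corner described below. The 38 measured neighbors within 5 rows and 5 columns had a median of -0.39, and 3 of them were at -1 or less. After that median was subtracted the ratio was -1.82, and with normexp background correction it was -1.08. The HIST1H3H probe, whose sequence is shown with that of HIST1H3I, read 2690 and 2296 (-0.26). Its spot, in row 413, is also in the corner, and its neighbors had a median of 0.08.

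HIST1H3B was called at 1 probe, with 1205 and 587 (-1.07, 2.10-fold lower), and not at the other, with 230 and 226 (-0.06). The probes overlap by all but 13 bases, so 1 transcript can bind both. The ratio of the called probe was -1 or less in 3 of 9 other settings and between -0.98 and -0.82 in the others.

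The 3 brightest measured H3 probes were below 0. HIST2H3PS2 read 41260 and 26860 (-0.65), HIST1H3C 27280 and 16470 (-0.76) and HIST1H3E 25340 and 16960 (-0.61). HIST1H3D, also among the 4 brightest measured, read 4949 and 5741 (0.18) and, at a probe 40 bases away, 178 and 128 (-0.50, but -0.033 with the authors' processed values). HIST1H3G had the highest H3 ratio, with 2334 and 2812 (0.23) at its coding probe, but read 65.6 and 34.8 (-0.95) 1622 bases downstream. That spot lies in the corner, its neighbors had a median of -0.23, and its ratio was -0.23 with normexp and -0.29 with the authors' processed values. HIST2H3A read 4525 and 5012 (0.11) at the coding probe and 3515 and 2887 (-0.32) at one without a shared frame.

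H4 is the most conserved of the histones, and HIST2H4A has a duplicate gene with which its probe can be shared. HIST2H4A read 22250 and 24750 (0.12), HIST1H4H 17040 and 19640 (0.17), HIST1H4J 13960 and 16280 (0.19) and HIST1H4I 10420 and 11690 (0.13). HIST1H4F read 7254 and 7263 (-0.03). In the main setting these 5 differed from 0 by between 0.03 and 0.19, which is within 2 technical SDs. They ran from -0.02 to 0.16 with the authors' processed values. Their range was 0.30 to 0.52 with quantile normalization, 0.33 to 0.53 with normexp and 0.25 to 0.51 with the signal trend subtracted. The highest ratio of all HIST probes was that of HIST1H4E, with 54.4 and 73.0 (0.39).

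HIST4H4, the single gene of the HIST4 cluster, was the H4 gene called lower. It was so at 1 of 2 probes, with 77.0 and 36.4 (-1.11, 2.17-fold lower), while the other read 101.4 and 92.8 (-0.16). With normexp background correction the first was -0.40, and with the authors' processed values, from which no background was subtracted, it was -0.55. Its neighbors had a median of 0.04 (90 spots). The lowest of the other H4 probes was HIST1H4K with 141 and 96.3 (-0.58), and 11 of its 71 neighbors were at -1 or less, with a median of -0.51.

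The linker histone H1 was measured at 3 probes. HIST1H1E read 78.0 and 67.8 (-0.24), HIST1H1D 21.9 and 22.4 (0.00) and HIST1H1C 19.9 and 23.1 (0.17). The lowest signals that counted as well above background were 15.0 and 17.5, so the latter pair of genes lay close to the limit.

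Position on the array was examined for all called spots. The corner, which spans rows 355 to 532 and columns 43 to 85, held 20 of the 83 HIST spots (24.1%) and 16.8% of all probes. Of the 5 called spots, HIST1H3I was in it. The neighbors of HIST1H2BB (81 spots, median 0.11), HIST2H2BE (59 spots, 0.06) and HIST1H3B (78 spots, -0.09) stood near 0. Outside the corner the median of the measured HIST probes was -0.16, the same as over all.

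**Figure D3:**
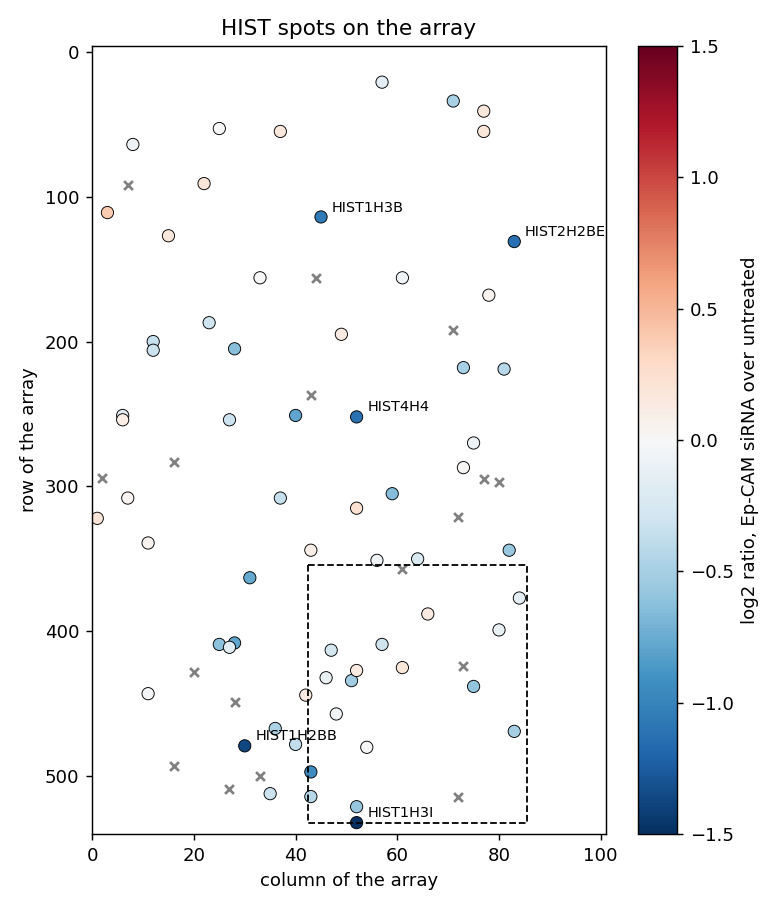
Place of each HIST spot on the array by row (vertical axis) and column (horizontal axis), colored by its log2 ratio (Ep-CAM siRNA over untreated, color scale ending at -1.5 and 1.5). Crosses are spots without a measured ratio, the dashed box is the corner of rows 355 to 532 and columns 43 to 85, and the 5 called spots are named. HIST1H3I lies on the last row inside the corner, and the other called spots lie outside it.

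Agreement between probes of 1 gene was low. Of 17 genes with more than 1 probe, 11 had at least 2 measured. Their ratios differed by a median of 0.60, by more than 2 technical SDs in 10 of 11 genes, and had opposite signs in 7. Of 7 probes lying over 900 bases downstream of a coding probe of the same gene (6 genes), 3 were not well above background. These were the far probes of HIST1H2AG, HIST1H2AK and HIST1H2BN, 1133, 2402 and 13849 bases downstream. A replication-dependent histone mRNA ends soon after its stop codon, so such probes lie beyond its end. Which transcript gave the signal at those that were measured was not tested. The measured far probes were those of HIST1H2BJ, HIST1H3G and HIST2H2BE, given above.

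**Figure D4:**
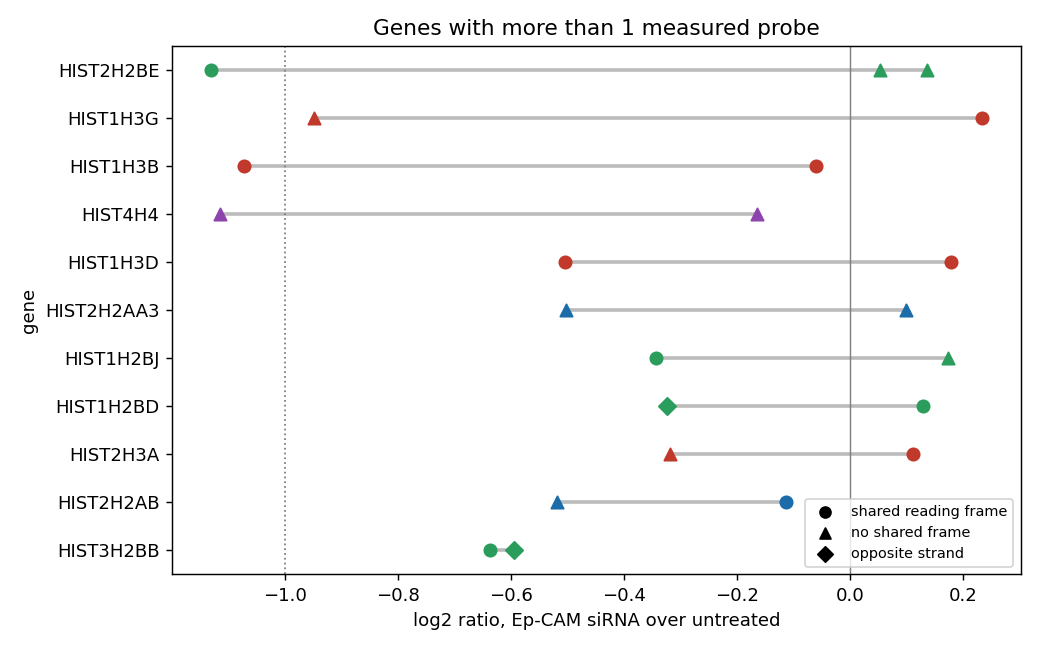
Log2 ratio (horizontal axis, Ep-CAM siRNA over untreated) of each measured probe of the 11 genes with more than 1 (vertical axis, ordered by the distance between probes). Circles are probes in a reading frame shared within the class, triangles probes without one, diamonds probes on the opposite strand, and colors the class (blue H2A, green H2B, red H3, purple H4). HIST2H2BE, HIST1H3B and HIST4H4 each have 1 probe below -1 and another near 0 or above.

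The kind of probe was also described, which rests on shared reading frames and is not a place in the transcript. Probes without a shared frame in HIST2H2AB, HIST1H2AJ and HIST2H3A lay upstream of a coding probe of the same gene. The kinds were not matched for signal level, with which the ratio moved. Measured coding probes had a median of -0.29, with 24 of 34 below 0. Measured probes that reach a stop codon had a median of -0.16 (9 of 12 below 0), and those without a shared frame -0.03 (9 of 18). Of the 5 called probes, 4 were coding, and the HIST4H4 probe had no shared frame. Among the 70 HIST probes with a ratio or bound, 38 were coding and 18 had no shared frame. Called lower were thus 10.5% of the coding probes and 5.56% of those without a shared frame, where 0.933% of all probes were. The order was not the same in each class. In H4 the median was 0.12 over 4 coding probes and -0.11 over 4 without a shared frame, and in H3 it was -0.29 over 14 coding probes and -0.63 over 2 without. Genes known to give polyadenylated transcripts as well (HIST1H1C, HIST1H2AC, HIST1H2BD, HIST1H2BK and HIST2H2BE) had 6 of 8 probes above 0 and a median of 0.09. Of all measured probes 55.2% were below 0, with a median of -0.03. The 8 probes include 3 of HIST2H2BE, with the called one, and the opposite-strand probe of HIST1H2BD. They were not matched for signal level with the other HIST probes. HIST1H2BK read 238 and 253 (0.05).

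The genes known from testis were mostly dim or could not be told from a close copy. HIST1H1T and HIST1H2BA were not well above background. HIST1H2AA read 44.3 and 45.96 (0.02). HIST3H3 read 56570, saturated, and 44050 (a bound of -0.40), and its probe shared 52 bases with that of HIST2H3PS2, so the transcript it read is uncertain.

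The promoters were compared from RefSeq sequence (GRCh38.p14), 250 bases before and 50 after the annotated start. All 65 genes were matched to a current symbol, and 60 to a promoter. Not matched were HIST1H2AH, HIST1H3I, HIST1H3J, HIST1H4A and HIST1H4C. The octamer ATTTGCAT, the binding motif of the factor OCT1 in H2B promoters, was searched on both strands. It was found in 11 of 14 H2A, 13 of 17 H2B, 1 of 11 H3, 0 of 12 H4 and 0 of 6 H1 promoters, and in 1.77% of all 35116 promoters. The letters CCAAT, also on both strands, were in all 14 H2A, 17 H2B, 11 H3 and 6 H1 promoters, in 3 of 12 H4 promoters and in 34.6% of all. The letters TATAAA were in 66.7% of HIST promoters and 11.5% of all. A match of letters is not a shown binding site.

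**Figure D5:**
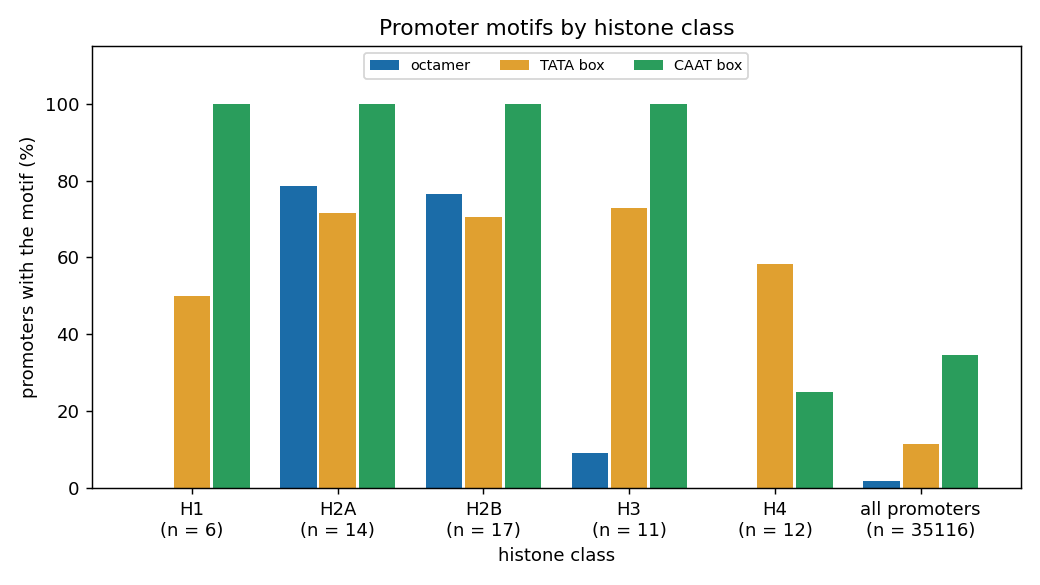
Share of promoters (vertical axis, percent) that hold the octamer, the TATA box or the CAAT box letters on either strand, by histone class and over all promoters (horizontal axis, with the number of promoters). The octamer stands at 78.6% in H2A and 76.5% in H2B and is at 0 in H1 and H4, and the CAAT box stands at 25.0% in H4 and 100% in the other classes.

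Many H2A and H2B genes lie head to head and share 1 octamer. The 25 genes with it had 16 octamer positions, and 8 of these lay in the windows of more than 1 gene (17 genes). The stretches around them in HIST2H2BE and HIST1H2BC are shown because these had the lowest and the highest H2B ratio among the genes that share an octamer, with the octamer, and the TATA letters where present, in capitals. They lie at chr1:149886685-149886744 (-) and chr6:26124006-26124065 (-) of GRCh38.p14.
HIST2H2BE: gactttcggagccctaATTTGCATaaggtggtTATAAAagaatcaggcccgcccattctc
HIST1H2BC: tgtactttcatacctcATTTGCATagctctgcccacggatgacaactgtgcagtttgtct

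The ratios of genes that share an octamer were set side by side. HIST1H2AC and HIST1H2BC read 0.18 and 0.19. HIST1H2AD and HIST1H2BF, whose octamer also lies before the annotated start of HIST1H3D, read -0.48 and -0.43, and the 2 probes of HIST1H3D -0.50 and 0.18. HIST1H2AJ (-0.80) and HIST1H2BM (-0.57), and HIST1H2AM (-0.42) and HIST1H2BO (-0.31), were both below 0. HIST1H2AE (-0.80) and HIST1H2BG (-0.07) differed. HIST2H2AC (-0.48) and HIST2H2BE (-1.13) are given at their coding probes, and the other HIST2H2BE probes were at 0.05 and 0.14. Over all genes with a promoter, the median was -0.31 for 27 measured probes of genes with the octamer and -0.15 for 35 of genes without. Within H2B the order was the other way, with -0.09 (15 probes) and -0.34 (6), so the overall order is not that within each class.

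Histone genes outside the clusters were read from a list. They are mostly replication-independent and have ordinary polyadenylated mRNAs. Of 17 listed, 14 were found and 11 had a ratio or a bound, of which 1 was called lower and none higher (0.933% and 1.28% of all probes). This was H3F3B, a gene for the replacement histone H3.3, with 56010 and 27120 (-1.08), and its other probes were at -1.35 and -0.90. H3F3A, the other H3.3 gene, was saturated on the untreated array at its brightest probe, and its 3 other measured probes were between -0.76 and -0.47. H2AFZ, the variant H2A.Z, read 58150 and 46410 (-0.36), with its other probes at -0.71 and -0.45, and H2AFX, the damage-marking variant, 23.1 and 27.4 (0.21). All 3 H3F3B probes were thus at -0.90 or less, but the brightest was above -1 in 5 other settings.

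The factors that process histone mRNA and carry histones were read in the same way. Of 24 listed processing genes, 23 were found, 18 had a ratio or a bound, and none was called (median -0.09), where the shares of all probes called lower and higher were 0.933% and 1.28%. SLBP, which binds the stem-loop, read 49.3 and 40.3 (-0.32). NPAT, the coactivator of histone genes, was not well above background. The ratios farthest from 0 were those of SNRPB with 5628 and 2979 (-0.95) and SNRPD3 with 29.9 and 53.1 (0.79), both Sm proteins of small nuclear RNPs. Of 20 histone chaperones, 19 were found, 17 had a ratio or bound and none was called (median -0.12), with HIRA the lowest measured at 157 and 107 (-0.59).

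The targeted gene and the cell line were checked on the same arrays. Ep-CAM has 1 probe (TACSTD1), which at 15.6 and 12.0 was too dim on both arrays to count as well above background, so its loss could not be read. Of 9 retinoblastoma and photoreceptor markers 7 were found and 4 were well above background, among them CRX with 86.8 and 68.7 and MYCN with 259 and 328 (0.30) at its brighter and a log2 ratio of -0.47 at its other probe. NRL, NEUROD1 and recoverin (RCV1) were not. Of markers of other cells, 4 of 6 for pigment epithelium, 4 of 5 for fibroblasts and 5 of 5 for epithelium were well above background on both arrays. Of all probes 66.0% were, so these counts do not tell cell types apart. None of these markers was called at its brightest probe, where 0.933% of all probes were called lower and 1.28% higher. A second probe of KRT14 was at -1.88.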

How the data were processed

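The members and gene lists were chosen with earlier results of these data known. The deposited files hold spot intensity values that the authors made with Agilent Feature Extraction (version 9.5.3.1 per the file headers). Processed intensity is background-subtracted and not scaled between arrays. The authors' processed values of the series are the raw median brightness (equal at 100% of probes printed once) and served as an alternative. Both arrays lay on 1 slide.

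Control and outlier spots were dropped and signals were scaled to the non-control median of the array (48.8 untreated, 50.0 treated). Values under 0.01 were raised to it, and log2 was taken. A probe dim or saturated on 1 array has a bound, and on both no ratio. Probes are called at log2 ratios of 1 and -1. Named probes are those called, the 4 brightest, highest and lowest per class, and all of genes with several probes; the SD is over repeated spots. Depth is not defined for intensity, and the number of arrays limits precision. The calling steps were run on simulated data with shifts well beyond the thresholds, which does not test calls near them. Python 3.11.15, pandas 2.3.3, Biopython 1.88, statsmodels 0.14.6 (lowess span 0.2), R 4.3.3 and limma 3.58.1 (normexp, offset 50) were used. Alternatives were 4 other scalings, normexp, the authors' series values, a local median within 5 rows and columns, the arrays without the corner, other filters, floor and thresholds, 1 value per gene, and no near-identical probes (90% or more). Added after seeing the data were a normexp fit without 1 spot dimmer than its background, and a signal trend.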

Additional observations from a re-analysis of the deposited data

How the results depend on the processing

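No paired analysis was possible because there was 1 array per condition, and no replicate could be left out. No HIST probe was called higher in any setting run, and 66 probes were measured on both arrays in each setting that kept all spots and the filter. The number called lower was 5, and it was 2 with 1 value per gene and under both normexp fits, and 3 with quantile normalization, the authors' series values and the signal trend subtracted. The shares of all probes called, 0.933% lower and 1.28% higher, were counted in the main setting only. Counts in other settings, here and for the other genes below, therefore have no share beside them. HIST1H3I and HIST1H2BB were at -1 or less in 9 of 9 settings, HIST4H4 in 6, HIST2H2BE in 5 and HIST1H3B in 3. The H2A median (-0.45) was -0.17 under both normexp fits, -0.24 with quantile normalization and -0.13 without the signal trend. The H2B median (-0.31) was -0.038 under normexp, -0.041 under normexp without the dim spot, -0.019 with quantile normalization, -0.060 without the trend and -0.091 without near-identical probes. The H3 median (-0.32) was -0.026 under normexp, -0.031 under normexp without the dim spot, -0.16 with quantile normalization and -0.16 without the trend. The median over all HIST probes (-0.16) was -0.030 and -0.038 under the normexp fits and -0.044 with quantile normalization. Of the other histone, processing and chaperone genes 1 was called. It was 0 with the local median subtracted, under both normexp fits, with quantile normalization and without the signal trend, 5 without a background filter and 3 at ratios above 1.5 and below 0.55. The cause of these changes was not tested beyond the settings' construction. No called ratio reversed. The median of all measured probes lay between -0.04 and 0.01 over the scalings. Signal at the ceiling and near background limits the ratios of 17 HIST probes.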
